A study of Mus musculus with 8 samples.

Results

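MicroRNAs (miRNAs) that reach their mature form without the standard Drosha step were followed in bone marrow LSK cells of diabetic and control mice. They were taken by name, as every row of the deposited table of mature miRNAs called miR-320, miR-484, miR-877, miR-1839 or miR-1981, with any strand suffix or none. This gave 4 of the 190 miRNAs listed: mmu-miR-320-3p, mmu-miR-484, mmu-miR-1981-5p and mmu-miR-1839-5p. No row was named miR-877. LSK cells are bone marrow cells sorted as lineage-negative, Sca1-positive and cKit-positive, where the blood-forming stem cells and early progenitors are found. The db/db mice (strain B6.BKS(D)-Leprdb/J) carry the db allele of Lepr, the leptin receptor gene, on both chromosomes and are used as a model of type 2 diabetes with obesity. The db/m mice (strain B6.BKS(D)-Leprdb/+) were heterozygous, so they too carry 1 copy of that allele. Each genotype had 4 small RNA libraries, all labelled as 6 months after the onset of diabetes, and the mutation is carried by every cell of the animal. Age and sex are not stated. The labels do not say whether libraries came from separate animals or pools, so the p-values rest on the spread among the libraries, part of which may be technical. All 8 titles read db/m, and the groups therefore follow the genotype and strain labels.

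Most miRNAs are made from a long primary transcript. The nuclear enzyme Drosha, with its partner Dgcr8, cuts out a hairpin, exportin-5 carries it to the cytoplasm, and Dicer cuts it to a short duplex from which a strand is loaded into an Argonaute protein. Some miRNAs enter this path after the Drosha step. The hairpins of miR-320 and miR-484 are capped RNA polymerase II transcripts in their own right, whose 5′ end is the transcription start. They leave the nucleus by way of exportin-1, and of miR-320 only the 3′ arm is used to any extent, since the cap stays on the 5′ arm. miR-1981 and miR-877 are mirtrons, in which a short intron, spliced out and debranched, folds into the hairpin that Dicer cuts. miR-1839 comes from a small Cajal body RNA, a relative of the small nucleolar RNAs that guide modification of other RNAs.

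The mature sequences are shown because the seed of a miRNA decides which messenger RNAs it can pair with. They are given 5′ to 3′ from RefSeq, build GRCm38.p6, for miR-484 (chr16:14159630-14159651, plus strand), miR-1981-5p (chr1:184822465-184822488, minus strand) and miR-1839-5p (chr7:81529919-81529940, plus strand). Capitals mark the seed, bases 2 to 8.
miR-484: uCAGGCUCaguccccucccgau
miR-1981-5p: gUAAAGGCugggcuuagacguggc
miR-1839-5p: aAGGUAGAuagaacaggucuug
The 3 seeds differ from each other. miR-484 and miR-1839-5p have 22 bases and miR-1981-5p has 24. G and C make up 63.6% of miR-484, 58.3% of miR-1981-5p and 40.9% of miR-1839-5p, where the median of the 125 tested miRNAs with a RefSeq sequence was 47.6%.

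The hairpins below carry the mature miRNA in capitals, to show how close to the hairpin's first base each one starts.
Mir484: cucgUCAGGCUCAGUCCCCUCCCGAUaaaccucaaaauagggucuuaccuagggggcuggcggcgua
Mir1981: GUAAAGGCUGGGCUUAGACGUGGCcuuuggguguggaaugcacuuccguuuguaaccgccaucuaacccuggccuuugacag
Mir1839: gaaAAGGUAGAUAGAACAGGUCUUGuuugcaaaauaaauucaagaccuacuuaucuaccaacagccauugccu
The mature miRNA began at base 5 of the 67-base Mir484 hairpin, base 1 of the 82-base Mir1981 hairpin and base 4 of the 73-base Mir1839 hairpin. Of 60 other tested miRNAs from the 5′ side of a RefSeq hairpin, 5 (8.33%) began at base 5 or before, with a median first base of 14 and a range of 4 to 42. Where a hairpin record begins is an annotator's choice for most miRNAs, so these distances describe the records.

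Mir1981 (GRCm38 chr1:184822407-184822488, minus strand) coincided base for base with an 82-base intron of Marc2, a gene of a mitochondrial amidoxime-reducing enzyme. This held for 6 of the 7 annotated transcripts that overlap it on its strand. In transcript Marc2-201 the intron lies between exon 5, of 62 bases, and exon 6, of 72 bases. It begins with gu and ends with ag, the letters of a standard intron. Mir1839 (chr7:81529916-81529988, plus strand) shared 66 bases with a 127-base annotated small Cajal body RNA at chr7:81529855-81529981, inside the long non-coding gene 2900076A07Rik. Mir484 (chr16:14159626-14159692, plus strand) lay across from Marf1, a gene on the opposite strand, with 19 of its bases under an exon of 1 of the 3 Marf1 transcripts. The start of Nde1, on the strand of Mir484, was 3583 bases away. Mir320 (chr14:70443510-70443591, plus strand) overlapped no annotated gene and lay 63 bases from Polr3d, an RNA polymerase III subunit gene on the opposite strand.

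**Figure D1:**
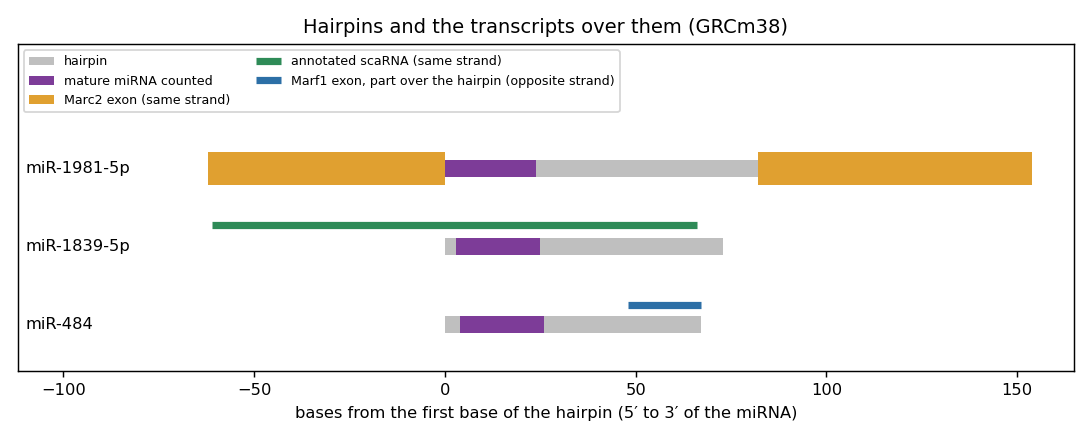
Hairpins of miR-1981-5p, miR-1839-5p and miR-484 drawn to scale, with the x axis in bases from the first base of each hairpin, the mature miRNA in purple and annotated transcripts over it in colour. The 82-base Mir1981 hairpin fills the gap between the Marc2 exons of 62 and 72 bases, and 66 bases of Mir1839 lie under the 127-base small Cajal body RNA.

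Total miRNA counts per library were 36145 to 54228 in db/db and 13273 to 77834 in db/m. At these depths 3 counts were worth 40.3 to 229 CPM (counts scaled by TMM to libraries of a common size). A minimum count left 144 miRNAs for testing, all 4 described here among them. RNA integrity numbers were 9.8 to 10 in db/db and 9.5 to 10 in db/m. All 8 libraries were sequenced in a single run. The titles carry 4 numbers of unstated meaning, each held by 1 to 3 libraries of a single genotype.

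miR-320-3p was lower in db/db LSK cells, 2.04-fold below the db/m level, and was the only 1 of the 4 to pass an adjusted p of 0.05 in edgeR's quasi-likelihood test. The mirtron miR-1981-5p was lower in all db/db libraries than in any db/m library but stayed just short of that threshold. miR-484, made by the same capped route as miR-320, averaged less in db/db with overlapping libraries. miR-1839-5p had nearly the same mean in both genotypes. Over all 144 tested miRNAs 7 passed, which is 4.86%, and 3 of them were lower in db/db, which is 2.08%. These are bulk measurements, in which fewer cells of a kind and less of a miRNA per cell cannot be told apart.

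miR-320-3p, known to repress the transferrin receptor in differentiating cells, was counted 60, 65, 38 and 42 times in db/db replicates 1 to 4, against 85, 22, 163 and 130 times in db/m replicates 1 to 4. In CPM this was 1046, 1263, 1027 and 927 in db/db, against 2252, 1681, 2192 and 2490 in db/m. Every db/db library lay below every db/m library, and the shallowest library, db/m replicate 2, was the lowest of its group. The means were 1066 ± 142 CPM in db/db and 2154 ± 341 CPM in db/m (SD, n = 4 each). The log2 fold change was -1.03 (SE 0.23, 95% interval -1.52 to -0.54, edgeR adjusted p = 0.0198). The SD between db/db libraries was 0.938 times that expected from counting alone, and the SD between db/m libraries 1.32 times. The call rested on single libraries. Without db/db replicate 1, db/m replicate 1 or db/m replicate 4 the edgeR adjusted p was 0.0533, 0.0727 or 0.0702, with log2 fold changes of -1.08, -1.01 and -0.98.

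miR-1981-5p was counted 13, 19, 16 and 11 times in db/db, against 26, 12, 55 and 30 times in db/m. These counts gave 227, 369, 432 and 243 CPM in db/db, against 689, 917, 740 and 575 CPM in db/m. The highest db/db library was below the lowest db/m library. The highest CPM of all, in db/m replicate 2, rested on 12 counts in the shallowest library. Its 95% Wilson interval ran from 0.0517% to 0.158% of all counts. The means were 318 ± 99.5 CPM in db/db and 730 ± 142 CPM in db/m (SD, n = 4 each). The log2 fold change was -1.17 (SE 0.33, 95% interval -1.89 to -0.46), with an unadjusted p of 0.00352 and an adjusted p of 0.0563 in edgeR's test. Its log2 fold change was of the size of that of miR-320-3p, with a wider error and fewer counts. The call depended on the test. DESeq2 gave an adjusted p of 0.0164 and edgeR's likelihood ratio test 0.0118.

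miR-484 was the scarcest, at 8, 9, 15 and 9 counts in db/db against 11, 6, 22 and 23 counts in db/m. This gave 139, 175, 405 and 199 CPM in db/db, against 291, 458, 296 and 441 CPM in db/m. Replicates 1, 2 and 4 of db/db were below all 4 db/m libraries, and db/db replicate 3 lay among them. The means were 230 ± 120 CPM in db/db and 372 ± 90.3 CPM in db/m (SD, n = 4 each). The log2 fold change was -0.69 (SE 0.39, 95% interval -1.53 to 0.15, edgeR adjusted p = 0.325), an interval that holds both no change and the change of miR-320-3p. Without db/db replicate 3 the log2 fold change was -1.12, with an edgeR adjusted p of 0.109. In the library with 6 counts, db/m replicate 2, the 95% Wilson interval of the share of all counts ran from 0.0207% to 0.0986%, which covers counting error only.

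miR-1839-5p was counted 49, 21, 23 and 47 times in db/db, against 29, 10, 56 and 27 times in db/m. The CPM values were 854, 408, 621 and 1038 in db/db, against 768, 764, 753 and 517 in db/m. Both the highest and the lowest value were in db/db. The means were 730 ± 274 CPM in db/db and 701 ± 122 CPM in db/m (SD, n = 4 each), a log2 fold change of 0.08 (SE 0.33, 95% interval -0.64 to 0.79, edgeR adjusted p = 0.935). Its sign was not stable. It was -0.14 without db/db replicate 4 and 0.25 without db/db replicate 2. The SD between db/db libraries was 2.19 times that expected from counting, the largest such ratio among the 4 miRNAs, while in db/m it was 0.779 times.

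**Figure D2:**
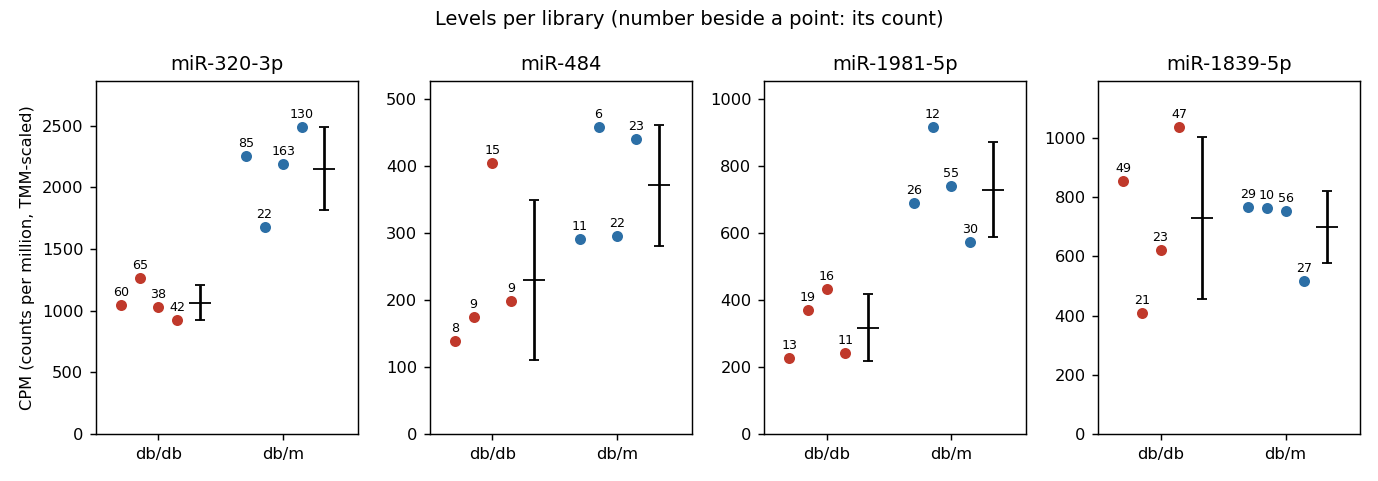
CPM of miR-320-3p, miR-484, miR-1981-5p and miR-1839-5p in the 4 db/db and 4 db/m libraries, in replicate order, with the raw count beside each point and the mean ± SD as a cross with bars. The groups are apart for miR-320-3p (927 to 1263 in db/db, 1681 to 2490 in db/m) and miR-1981-5p (227 to 432 in db/db, 575 to 917 in db/m), and overlap for miR-484 and miR-1839-5p.

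The log2 fold changes were below 0 for 3 of the 4 miRNAs, with a median of -0.86. Over all 144 tested miRNAs 78 were below 0, which is 54.2%, with a median of -0.03. Lower levels at an unadjusted edgeR p under 0.05 were found for 2 of the 4, miR-320-3p and miR-1981-5p, beside 17 of 144 or 11.8% over all. For the same 2 of the 4, all db/db libraries lay below all db/m libraries, beside 13 of 144 or 9.03% over all. With 4 miRNAs these counts describe the miRNAs and say nothing of the routes that made them. Library totals with no scaling factor moved the median of all miRNAs to 0.08, and miR-320-3p then had a log2 fold change of -0.92 (edgeR adjusted p = 0.0302).

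The neighbours of each miRNA in abundance were set beside it. The tested miRNAs next above and next below miR-320-3p in mean CPM were miR-30c-5p, with a log2 fold change of 0.03 (edgeR adjusted p = 0.962), and miR-423-3p, with -0.05 (edgeR adjusted p = 0.944). For miR-1981-5p they were miR-34a-5p at 0.68 (edgeR adjusted p = 0.362) and miR-1843a-3p at -0.02 (edgeR adjusted p = 0.978). For miR-484 they were miR-199a-3p at 0.64 and miR-378a-5p at -0.11, and for miR-1839-5p they were miR-378a-3p at 0.15 and miR-1198-5p at -0.83. The edgeR adjusted p was above 0.05 for each of these 8 neighbours, as it was for each of the 4 miRNAs but miR-320-3p. miR-1198-5p had an unadjusted p of 0.0171 in edgeR's test, and all its db/db libraries lay below all its db/m libraries.

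**Figure D3:**
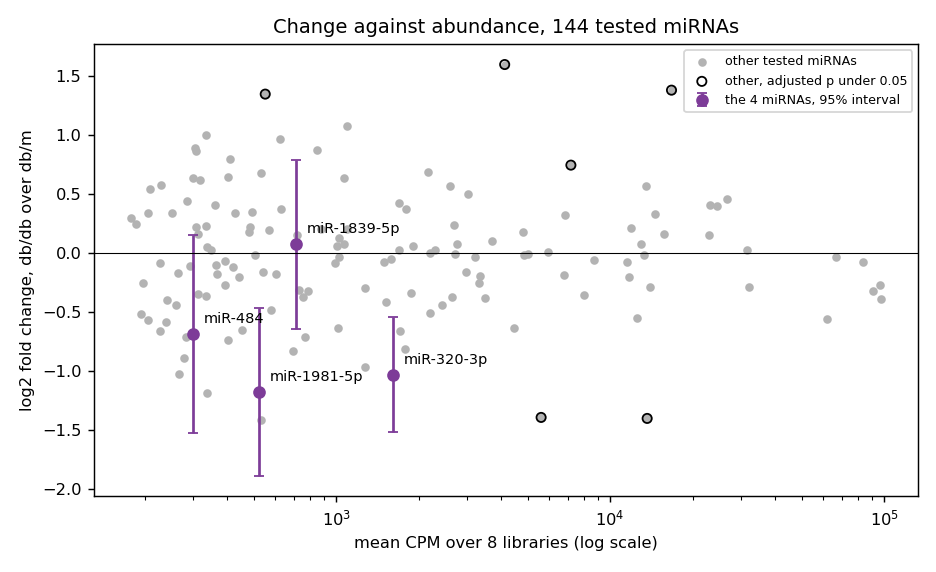
Log2 fold change of db/db over db/m against mean CPM over 8 libraries (log scale) for 144 tested miRNAs, with the 4 miRNAs in purple with 95% intervals and the other 6 that passed an adjusted p of 0.05 ringed. The intervals of miR-320-3p and miR-1981-5p lie below 0, and those of miR-484 and miR-1839-5p cross it.

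In the authors' deposited table miR-320-3p had a false discovery rate of 0.000609 at a log2 fold change of -1.12. For miR-1981-5p the authors' deposited table had 0.0135 at -1.25. The authors' deposited table had 0.302 at -0.78 for miR-484, and 0.994 at -0.0026 for miR-1839-5p. So 2 of the 4 were under a false discovery rate of 0.05 in the authors' deposited table, beside 10 of its 190 miRNAs or 5.26%. Without a filter on low counts the likelihood ratio test of edgeR gave the authors' values, and miR-1981-5p is the miRNA of the 4 whose call differs between that test and the quasi-likelihood test.

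Ratios between 2 of the miRNAs in the same library need no scaling and ask whether they moved together. miR-320-3p to miR-1839-5p had a log2 ratio of counts of 0.61 ± 0.75 in db/db and 1.60 ± 0.48 in db/m (SD, n = 4 each), a difference of -0.99. In the 4 db/db libraries it was 0.29, 1.61, 0.71 and -0.16, against 1.54, 1.10, 1.53 and 2.25 in db/m. One library, db/db replicate 2, lay inside the db/m range, and the exact two-sided permutation p was 0.114. miR-1981-5p to miR-1839-5p had a log2 ratio of -1.14 ± 0.96 in db/db and 0.06 ± 0.18 in db/m, a difference of -1.20 with an exact two-sided permutation p of 0.0571 (n = 4 each). The db/db values were -1.87, -0.14, -0.51 and -2.05, against -0.15, 0.25, -0.03 and 0.15 in db/m. In db/m the mirtron and the small Cajal body RNA product had nearly equal counts in each library, while db/db replicates 1 and 4 held far more miR-1839-5p. The SD in CPM between db/m libraries was 0.862 times that expected from counting for miR-1981-5p and 0.779 times for miR-1839-5p. The narrow db/m range of this ratio is therefore not read as a trait of db/m.

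miR-320-3p to miR-1981-5p had a log2 ratio of 1.76 ± 0.40 in db/db and 1.55 ± 0.52 in db/m, a difference of 0.21 with an exact two-sided permutation p of 0.543. The 2 miRNAs whose genotypes did not overlap in CPM had overlapping ratios to each other, with 1.22 to 2.16 in db/db and 0.85 to 2.10 in db/m. Adjusted over these 3 pairs the exact permutation p was 0.171 for each pair with miR-1839-5p. The smallest exact permutation p that 4 libraries against 4 allow is 0.0286, which for 1 pair alone becomes 0.0857 over 3 pairs and 0.171 over 6, so a single pair could not have passed 0.05 after adjustment.

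Pairs with miR-484 were added after the table was read. The miRNAs of the first 3 pairs were themselves chosen with earlier results of these data known. miR-320-3p to miR-484, made by the same capped route, had a log2 ratio of 2.27 ± 0.71 in db/db and 2.51 ± 0.51 in db/m (exact permutation p = 0.571, n = 4 each). miR-1839-5p to miR-484 differed by 0.76 between db/db and db/m (exact permutation p = 0.257), and miR-1981-5p to miR-484 by -0.44 (exact permutation p = 0.2). Adjusted over all 6 pairs the exact permutation p was between 0.343 and 0.571, and in each of the 6 pairs the genotypes overlapped.

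**Figure D4:**
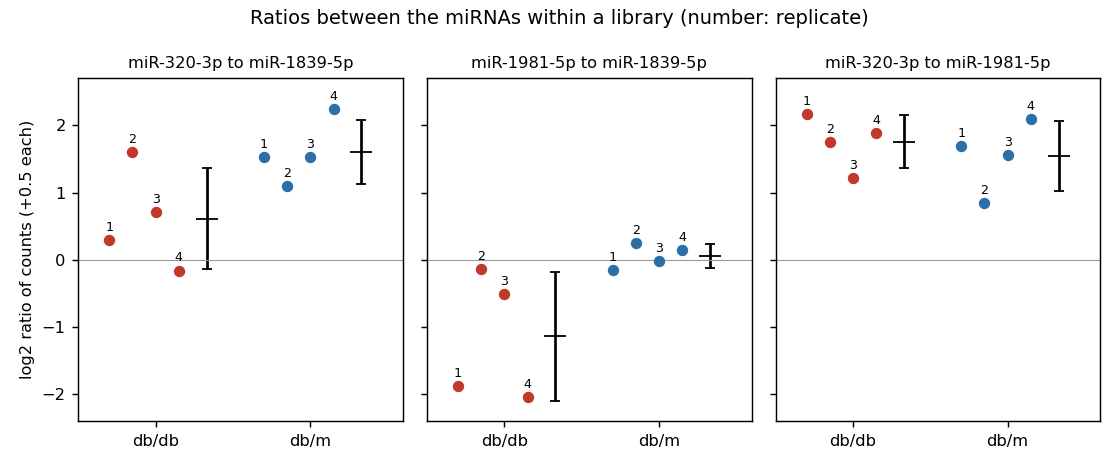
Log2 ratio of counts within a library, with 0.5 added to each count, for 3 pairs of miRNAs in the 4 db/db and 4 db/m libraries, with the replicate number beside each point and the mean ± SD as a cross with bars. The ratio of miR-1981-5p to miR-1839-5p sits between -0.15 and 0.25 in db/m and between -2.05 and -0.14 in db/db.

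The order of levels within libraries was partly shared by the genotypes. miR-320-3p was the most abundant of the 4 by mean in both, and its count exceeded that of miR-1839-5p in 3 of 4 db/db libraries and 4 of 4 db/m libraries. miR-1981-5p exceeded miR-484 in all 8 libraries, with log2 ratios of 0.09 to 1.04 in db/db and 0.38 to 1.30 in db/m. miR-1839-5p and miR-1981-5p, neighbours in this order in db/m, did not differ beyond their spread there. Mature miRNAs are of near-equal length, so counts were not divided by length, but ligation to adapters differs between sequences and the order is of counts.

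Summed over the 4 miRNAs there were 445 counts in db/db and 707 in db/m. They took 0.240%, 0.227%, 0.255% and 0.243% of the miRNA counts in db/db replicates 1 to 4, against 0.372%, 0.377%, 0.380% and 0.384% in db/m. The shares did not overlap between the genotypes, at 0.241% ± 0.0112 in db/db and 0.378% ± 0.00505 in db/m (SD, n = 4 each). The Wilson interval of each library was wider than the range of shares in its genotype, so the small SDs are not read as a trait of the sum. In db/m replicate 2, with 50 counts, it ran from 0.286% to 0.496%. It overlapped those of db/db replicates 3 (0.208% to 0.312%) and 4 (0.202% to 0.293%). The intervals of db/m replicates 1, 3 and 4 lay above all db/db intervals. No test is given for this sum, since its members were chosen with results known. miR-320-3p supplied 45.8% ± 8.14 of the sum in db/db and 54.3% ± 7.49 in db/m. The genotypes were already apart for miR-320-3p alone and for the mirtron alone, and overlapped for the other members. The separation of the sum repeats those results and is not read as a trait of all 4 miRNAs.

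The tested miRNAs most like each of the 4 were named by Pearson's r of log2 CPM over the 8 libraries, which share the genotype difference and the scaling. For miR-320-3p they were miR-25-5p (0.95), let-7c-5p (0.93) and let-7a-5p (0.92). For miR-1981-5p they were miR-423-5p (0.92), miR-1198-5p (0.90) and let-7d-5p (0.90), and for miR-484 miR-1198-5p (0.88), miR-423-5p (0.85) and let-7d-3p (0.79). miR-423-5p and miR-1198-5p thus stood in the lists of both miR-484 and miR-1981-5p. For miR-1839-5p they were miR-184-3p (0.82), miR-16-5p (0.82) and miR-23a-3p (0.62).

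Among the 4 themselves, r over the 8 libraries was 0.80 between miR-320-3p and miR-1981-5p and 0.78 between miR-484 and miR-1981-5p. Once each library's deviation from its own genotype mean was taken, r was -0.19 for miR-320-3p with miR-1981-5p and 0.58 for miR-484 with miR-1981-5p. miR-320-3p with miR-484, made by the same capped route, gave 0.54 over the 8 libraries and -0.25 in the deviations. miR-320-3p with miR-1839-5p gave -0.25 over the 8 libraries and -0.72 in the deviations. In the same order, miR-484 with miR-1839-5p gave -0.17 and -0.23, and miR-1981-5p with miR-1839-5p gave -0.18 and -0.39. These values rest on 8 libraries and on counts as low as 6.

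A short list of 5 other miRNAs with unusual routes was looked up, and it does not cover all such miRNAs of the table. Of miR-451a, cut by Argonaute 2 in place of Dicer, the mirtrons miR-702, miR-1224 and miR-1982, and the small nucleolar RNA product miR-664, only miR-664-5p had a row. It was too low to be tested, at 88.3 to 194 CPM in db/db and 0 to 364 CPM in db/m. Markers of other blood cells were set beside the 4 miRNAs. Of 4 red cell names only miR-486a-5p had a row, at 1108 to 5754 CPM in db/db and 2252 to 3388 CPM in db/m. Its log2 fold change was -0.01, with a wide 95% interval of -0.95 to 0.94. The 3 rows of the myeloid miRNAs miR-142a and miR-223 summed to 21049 to 28768 CPM in db/db and 20478 to 30226 CPM in db/m. Of these 3 rows 0 passed, beside 4.86% over all tested miRNAs. The lymphoid miR-150-5p, at 2980 to 4107 CPM in db/db and 3523 to 8864 CPM in db/m, had a log2 fold change of -0.63 (95% interval -1.23 to -0.04), on the same side of 0 as miR-320-3p. Its unadjusted p was 0.0381 and its adjusted p 0.183 in edgeR's test, and its libraries overlapped between the genotypes.

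Of 5 stromal names, miR-199a-3p and miR-143-3p had rows, at a summed 175 to 1236 CPM in db/db and 76.4 to 498 CPM in db/m, and 0 of 1 tested passed. Both strands of miR-126a, found in endothelium, platelets and stem cells, passed as higher in db/db, at a summed 17641 to 41000 CPM in db/db and 8237 to 12850 CPM in db/m. All 7 rows of the stem and progenitor miRNAs were present, at a summed 79589 to 94845 CPM in db/db and 54322 to 89025 CPM in db/m. Of these 7 miRNAs, 1 passed, as higher. Over all 144 tested miRNAs 7 passed, which is 4.86%, and 4 of them were higher. The part of any shift in cell makeup in the lower miR-320-3p was not tested.

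Seeds were compared for miR-484, miR-1981-5p and miR-1839-5p, and not for miR-320-3p. Bases 2 to 7 of miR-1839-5p equal bases 3 to 8 of let-7, shown here with its seed, bases 2 to 8, in capitals for let-7a-5p from chromosome 13.
let-7a-5p: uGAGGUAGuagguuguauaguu
The same 6 bases stood 1 base later than in miR-1839-5p in 9 miRNAs of the table, 8 let-7 members and miR-98-5p. Together these 9 held 367819 CPM in db/db and 435353 CPM in db/m, which was 504 times the level of miR-1839-5p in db/db and 621 times in db/m. Their log2 fold changes ran from -0.48 to 0.16 with a median of -0.27, 8 of 9 were below 0 (54.2% over all tested), and 0 of 9 passed in edgeR's test (4.86% over all tested). Single let-7 members are uncertain, since the sources do not say how reads of near-identical members were assigned. No miRNA of the table with a RefSeq sequence shared the seed of miR-484 or miR-1981-5p, or 6 of its bases shifted by 1.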

How the data were processed

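LSK cells were sorted, their RNA taken with Trizol and turned into libraries with a QIAseq miRNA kit, per the labels' protocols. The authors deposited raw counts per mature miRNA for 8 libraries, log2 CPM values, and log2 fold changes, signed fold changes, p-values and false discovery rates of diabetic against control libraries, per the file headers. The deposited RNA integrity number is read as a score. The submitters' processing notes name edgeR 3.41.9 and mm10. No aligner or use of molecular identifiers is given in the sources used here. A count may therefore stand for reads or molecules, and intervals cover counting error alone. Recomputed with the genotype split, all 190 authors' fold changes and p-values matched within 1e-06. 

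The test used edgeR 4.0.16 (R 4.3.3) over all 8 libraries: filterByExpr (minimum count 10, minimum total 15), TMM, robust glmQLFit and glmQLFTest. p-values were adjusted by Benjamini-Hochberg over the 144 tested miRNAs, with a threshold of 0.05. The script was tested on simulated data. CPM are counts over TMM-scaled library sizes. log2 CPM for correlations used a prior count of 2. Log2 ratios, with 0.5 added to each count, were compared by exact two-sided permutation over 70 assignments (scipy 1.17.1). Shares have 95% Wilson intervals. DESeq2 1.42.0 and other settings were alternatives. Loci come from GENCODE on GRCm38 and sequences from RefSeq, where 3 of the 4 miRNAs matched. Besides the 4 miRNAs, the rule named the 3 most alike, the abundance neighbours, seed relatives and other miRNAs of unusual biogenesis. The members and lists were chosen with earlier results of these data known.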

Additional observations from a re-analysis of the deposited data

Results flagged for a closer look

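miR-1839-5p stood at 517 CPM in db/m replicate 4, below the other 3 db/m libraries, which lay within 753 to 768 CPM. The gap to the nearest library was 0.939 of the group's whole range, above the 95% critical value of Dixon's test for 4 samples. Of 20 groups of values checked 1 was picked out in this way, and chance picks out about 1 in 20. The SD between db/m libraries was 0.779 times that expected from counting. The 27 counts of db/m replicate 4 gave a 95% Wilson interval of 0.0340% to 0.0719% of all counts. That interval overlapped those of the other db/m libraries.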

How the results depend on the processing

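miR-320-3p stayed lower in db/db under all 17 alternatives, with log2 fold changes of -1.15 to -0.92, and under 14 of them edgeR or DESeq2 gave an adjusted p under 0.05. The exceptions left out 1 library each, and the range over the 8 such fits was -1.15 to -0.97. The log2 fold change of miR-1981-5p was below 0 under all 17, from -1.39 to -0.98. It passed 0.05 with the 5 most abundant miRNAs left out of the library size (-1.19, edgeR adjusted p = 0.0477), with DESeq2 (-1.15, 0.0164), with edgeR's likelihood ratio test (-1.17, 0.0118; -1.25 and 0.0135 with no filter, a setting chosen after seeing the data) and without db/db replicate 3 (-1.39, 0.0387). Leaving out 1 library gave it -1.39 to -1.07. miR-1839-5p turned to -0.0061 with no filter and -0.0026 with no filter and the likelihood ratio test, and ran from -0.14 to 0.25 when 1 library was left out. That of miR-484 stayed below 0, from -1.12 to -0.56, and did not pass 0.05, with an adjusted p of NA in DESeq2. The number of miRNAs past 0.05, 7 in edgeR's quasi-likelihood test, was 11 with the 5 most abundant left out of the library size, 16 with DESeq2, 12 with the likelihood ratio test and 21 with libraries of a title number summed, and 3 to 16 without 1 library (3 without db/db replicate 1, db/m replicate 1 or db/m replicate 4). The causes were not tested. Summing by title number left 4 units in all in place of 8 libraries. It gave log2 fold changes of -1.01 for miR-320-3p (edgeR adjusted p = 0.00715) and -0.98 for miR-1981-5p (edgeR adjusted p = 0.0758). For miR-484 it gave -0.62 (edgeR adjusted p = 0.434) and for miR-1839-5p 0.31 (edgeR adjusted p = 0.698). The difference in log2 ratio of miR-320-3p to miR-1981-5p ran from -0.027 to 0.39 and that of miR-320-3p to miR-484 from -0.47 to 0.088 without 1 library, and the other 4 pairs kept their sign. With 3 libraries against 4 the smallest exact permutation p is 0.0571. No paired analysis was possible because the replicate numbers were given in accession order and the title numbers occur in 1 genotype only. Depth limits miR-484 most, with 6 to 23 counts per library.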
